A study of Mus musculus with 8 samples.

Results

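The 10 integrin chains described here were taken by gene symbol from a table of 53673 gene names, and all 10 were present and passed the filter on low counts. They were given as a list and comprise 4 chains of the leukocyte β2 system (Itgam, Itgal, Itgax and Itgb2) and 6 chains of receptors for matrix and vascular ligands (Itgav, Itga4, Itga5, Itga6, Itgb1 and Itgb3). Messenger RNA was sequenced in 4 libraries of MSC-educated leukemia macrophages (E-Mac) and 4 libraries of leukemia macrophages kept alone (Mac). All were leukemia macrophages of C57BL/6 mice, sorted from 12 h cultures. The E-Mac cultures also held mesenchymal stromal cells (MSC), which are adherent, matrix-producing cells of the marrow. The labels name no leukemia model, mouse age or sorting gate. They also do not tie the libraries to separate mice or dishes, so the p-values reflect the spread among these 8 samples, and that spread may be technical.

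Integrins are surface receptors made of 1 α and 1 β chain, and each pair has its own ligands. The β2 chain CD18 pairs only in leukocytes: with αL (LFA-1, a receptor for ICAM proteins), with αM (Mac-1, the complement receptor CR3, which also binds fibrinogen) and with αX (CD11c, common on dendritic cells and some macrophages). The β1 chain pairs with many α chains, among them α4 (a receptor for VCAM-1 and fibronectin), α5 (the classical fibronectin receptor) and α6 (a laminin receptor). The αv chain pairs with several β chains, including β3 and β5, and binds vitronectin, osteopontin and other ligands with the RGD motif. In myeloid cells the β2 integrins serve adhesion, migration and uptake of opsonised particles.

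The promoters of 4 α chains are shown because their transcripts moved by the largest amounts in either direction among those members whose promoter the RefSeq table (GRCm38.p6) held. That table held 6 of the 10 members (Itgam, Itgax, Itgav, Itga4, Itga5 and Itgb1). Each line gives the 250 bases before the annotated start, 5′ to 3′ on the strand of the gene, with capitals marking the letters GAGGAA, the core of sites for the myeloid factor PU.1, GGGCGG, a GC box, or TGAGTCA, an AP-1 site, on either strand.
Itgam: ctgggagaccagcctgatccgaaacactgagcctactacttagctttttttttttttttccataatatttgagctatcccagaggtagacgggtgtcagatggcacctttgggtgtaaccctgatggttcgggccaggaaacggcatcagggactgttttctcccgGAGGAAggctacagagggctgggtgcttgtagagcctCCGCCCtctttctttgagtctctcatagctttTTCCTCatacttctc
Itgav: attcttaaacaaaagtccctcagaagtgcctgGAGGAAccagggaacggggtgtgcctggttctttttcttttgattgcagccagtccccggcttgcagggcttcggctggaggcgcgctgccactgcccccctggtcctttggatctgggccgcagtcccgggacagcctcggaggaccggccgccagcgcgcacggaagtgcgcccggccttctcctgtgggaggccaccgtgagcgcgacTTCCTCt
Itga5: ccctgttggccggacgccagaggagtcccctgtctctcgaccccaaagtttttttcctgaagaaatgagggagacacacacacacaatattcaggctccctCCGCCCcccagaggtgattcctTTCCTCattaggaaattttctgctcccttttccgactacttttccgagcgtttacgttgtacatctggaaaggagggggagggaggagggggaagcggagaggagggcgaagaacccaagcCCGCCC
Itga4: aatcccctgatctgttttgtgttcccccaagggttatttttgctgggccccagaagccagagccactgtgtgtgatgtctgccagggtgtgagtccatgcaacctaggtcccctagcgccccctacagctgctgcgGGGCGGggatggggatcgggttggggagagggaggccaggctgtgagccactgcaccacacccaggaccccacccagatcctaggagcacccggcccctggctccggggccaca
The windows lie at chr7:128062390-128062639 on the plus strand for Itgam, chr2:83724147-83724396 on the plus strand for Itgav, chr15:103366792-103367041 on the minus strand for Itga5 and chr2:79255176-79255425 on the plus strand for Itga4. GAGGAA stood at 2 places for Itgam, at 2 for Itgav, at 1 for Itga5 and at 1 for Itgb1, and at none for Itga4 and Itgax. Of 32851 mouse promoters of the same length 23.3% held GAGGAA, 32.7% held GGGCGG and 4.5% held TGAGTCA. The AP-1 letters stood in the Itgax window alone of these 6. A match is a description of these letters and not a binding site.

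Total counts ran from 13377046 to 15740846 in E-Mac and from 11646025 to 15556935 in Mac. Levels are given as CPM, counts per 1000000 of a library's scaled total. On principal component 2, E-Mac 2 and 4 lay at -20.6 and -28.9 and E-Mac 1 at 26.2, with E-Mac 3 beside E-Mac 1 and all Mac libraries between -3.4 and 5.1. Neither pair is nearer to Mac there, so results are also given without either pair. The pairs were formed from the expression data, and the values without a pair are descriptions, given with no p. The 16 stromal markers summed to 86.4, 449, 67.6 and 498 CPM in E-Mac 1 to 4, against 21.98 to 24.4 CPM in Mac, and Col6a1, Pdgfra, Lum, Dcn and Cxcl12 averaged under 1 CPM. The 18 granulocyte markers summed to 11689, 18933, 12396 and 16388 CPM in E-Mac 1 to 4, against 34148 to 37942 CPM in Mac, and 2 of them rose and 13 fell. The 12 macrophage markers were all above 1 CPM and summed to 10240.3 to 14412 CPM in E-Mac, against 13514 to 14657 CPM in Mac, with 8 rising and 2 falling. The 10 monocyte markers summed to 5405 to 6047 CPM in E-Mac and 6233 to 6507 CPM in Mac (2 higher and 7 lower). The 9 dendritic cell markers summed to 696 to 1397 CPM in E-Mac and 733 to 848 CPM in Mac (3 higher and 4 lower). For the 11 megakaryocyte and platelet markers the sums were 128 to 253 CPM in E-Mac and 46.7 to 55.4 CPM in Mac. Of these 11 markers, 2 rose and 4 fell. B cell markers (8) summed to 19.3 to 33.9 CPM in E-Mac and 20.1 to 23.98 CPM in Mac, and the 12 T and NK cell markers to 2.22 to 5.97 CPM in E-Mac and 3.93 to 9.38 CPM in Mac, with Cd3e at 0 counts throughout. In such mixed samples fewer cells of a type and less RNA per cell cannot be told apart.

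Of the 10 integrin chains 6 rose and 3 fell in E-Mac, and Itgax did not pass (edgeR's quasi-likelihood test, Benjamini-Hochberg adjusted p under 0.05 over 13412 genes). Over all genes tested 58.3% were called, 29.5% higher and 28.8% lower. The members' count of 9 of 10 stands above that background, but the list was drawn up with results of these data known and was not tested as a list. The background also holds genes at lower levels than the members, which all averaged above 10 CPM. With a filter of at least 10 CPM in 4 libraries, 8 of the 10 members were called, beside 5890 of 8830 genes. In the same 9 members the 4 E-Mac and 4 Mac libraries did not overlap, as in 53.9% of genes tested. Both kinds of chain were split: 2 of 4 β2 chains rose and 1 fell, with a median log2 fold change (E-Mac over Mac) of -0.0027, and 4 of 6 matrix-binding chains rose and 2 fell, with a median of 0.62, against -0.0030 over all genes tested. Without E-Mac 2 and 4 all 10 were called, 6 higher and 4 lower, where 60.1% of all genes were, and without E-Mac 1 and 3 the count was again 6 higher and 3 lower, where 55.2% of all genes were. In a stricter test, against a fold of 1.5, Itgav, Itga5 and Itga6 alone of the 10 passed.

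**Figure D1:**
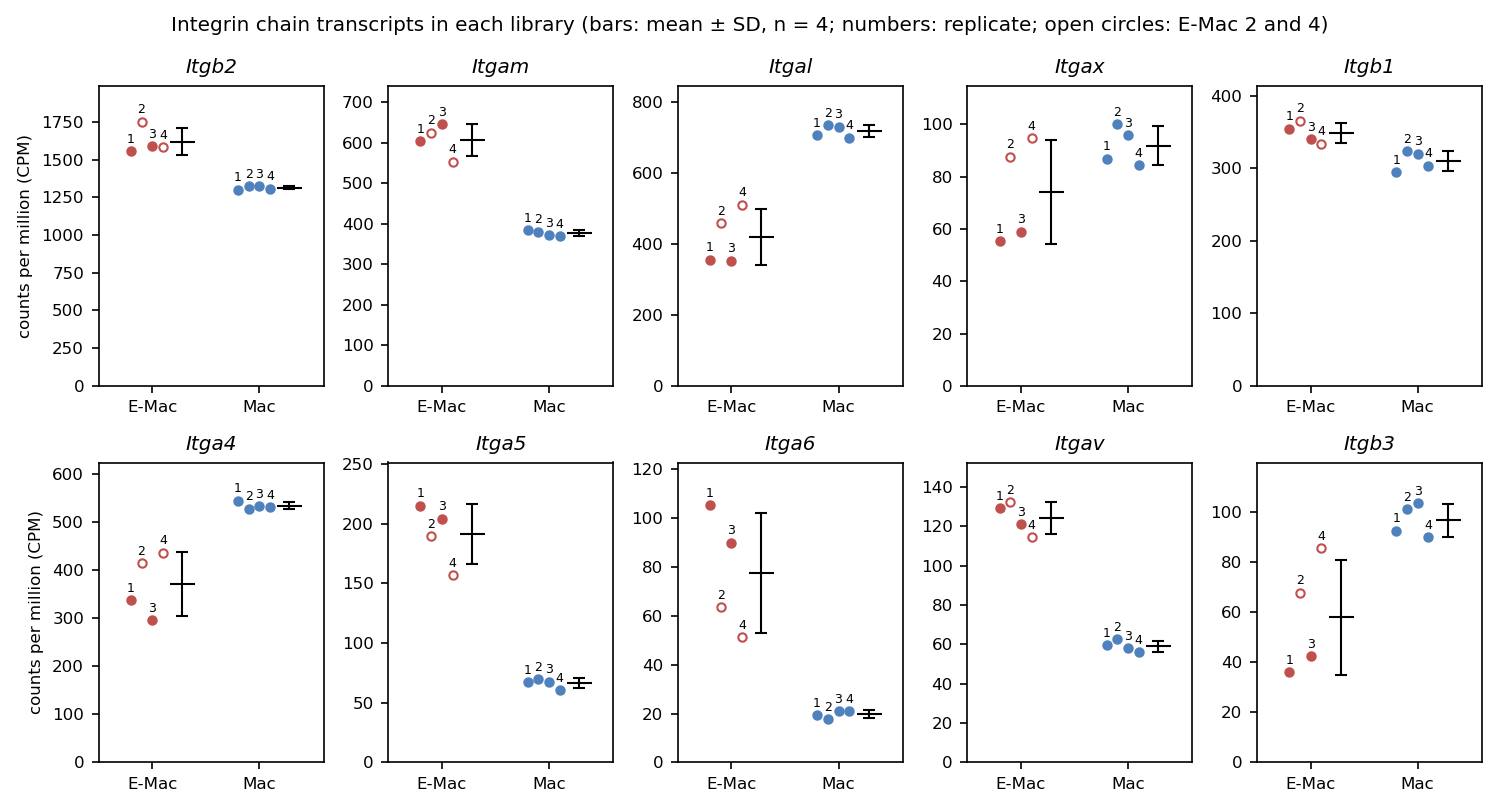
CPM (linear axis from 0) of the 10 integrin chains in each E-Mac library (red) and each Mac library (blue), with the replicate number above each point, E-Mac 2 and 4 as open circles, and bars for the mean ± SD of 4 libraries. In 9 panels the groups do not overlap, Itgax is the exception, and E-Mac 2 and 4 lie nearer to Mac than E-Mac 1 and 3 for Itgal, Itga4, Itga5, Itga6 and Itgb3.

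Itgb2, the common β2 chain (ENSMUSG00000000290, on mm10 chromosome 10, 77530252 to 77565708), was at 1555, 1752, 1589 and 1582 CPM in E-Mac 1 to 4 and at 1301, 1322, 1325 and 1306 CPM in Mac 1 to 4. Every E-Mac library was above every Mac library, and the change was small next to those of most other members (log2 fold change 0.30 ± 0.07 SE, n = 4 and 4, edgeR adjusted p = 0.00212). Scaling by total counts only gave 0.16 (edgeR adjusted p = 0.0498), where the median of all genes moved to -0.15.

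The α partners of Itgb2 went in different directions. Itgam, the αM chain CD11b, read 604, 624, 646 and 553 CPM in E-Mac 1 to 4 and 385, 380.3, 372 and 369.7 CPM in Mac 1 to 4. The groups lay far apart relative to their spread, with a log2 fold change of 0.69 ± 0.07 (edgeR adjusted p = 1.81e-06) and 0.74 or 0.65 without E-Mac 2 and 4 or without E-Mac 1 and 3. Itgal, the αL chain CD11a, read 355, 457, 352 and 510.0 CPM in E-Mac 1 to 4 and 705, 733, 729 and 699 CPM in Mac 1 to 4. It fell in all 4 E-Mac libraries, least in E-Mac 2 and 4 (-0.77 ± 0.11, edgeR adjusted p = 4.76e-05, -1.01 without E-Mac 2 and 4 and -0.56 without E-Mac 1 and 3).

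Itgax, the αX chain CD11c, read 55.3, 87.7, 58.9 and 94.6 CPM in E-Mac 1 to 4 and 86.9, 100.1, 96.0 and 84.3 CPM in Mac 1 to 4. E-Mac 2 and 4 lay within the Mac range and E-Mac 1 and 3 below it, so the groups overlapped and the difference did not pass (-0.31 ± 0.16, edgeR adjusted p = 0.13, 0.0333 to 1 over the alternatives other than leaving out a pair). It passed without E-Mac 4 (-0.44, edgeR adjusted p = 0.0341) and with total counts only (-0.45, edgeR adjusted p = 0.0333). Its value was -0.68 without E-Mac 2 and 4 and -0.0011 without E-Mac 1 and 3, so the difference rests on E-Mac 1 and 3. Cd24a made up most of the dendritic cell marker sum (975 CPM in E-Mac and 674 CPM in Mac on average). The other 8 markers summed to 42.2 to 72.1 CPM in E-Mac and 121 to 124 CPM in Mac, and their part in the values of Itgax was not tested.

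Itgal, Itgam and Itgax lie on chromosome 7 of mm10, at 127296260 to 127335138, 128062640 to 128118491 and 128129547 to 128150657. Of the 5024 exon bases of Itgam, 3450 are also annotated to Gm49368, a gene on the same strand that had 5 to 17 counts per library. The labels do not say how reads in shared exons were counted, so the level of Itgam per length is uncertain.

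Among the chains of matrix receptors, the α partners of β1 moved apart from each other. Itga5, the α chain of the fibronectin receptor (chromosome 15, 103344286 to 103366763), read 215, 189, 204 and 157 CPM in E-Mac 1 to 4 and 67.3, 69.9, 67.6 and 60.4 CPM in Mac 1 to 4. Its lowest E-Mac library was far above the highest Mac library (log2 fold change 1.53 ± 0.09, edgeR adjusted p = 1.81e-08). Itga6, the laminin-binding α6 chain (chromosome 2, 71745616 to 71858416), read 105, 63.5, 89.9 and 51.2 CPM in E-Mac 1 to 4 and 19.4, 17.7, 20.9 and 21.1 CPM in Mac 1 to 4. This was the largest rise among the 10 chains (1.97 ± 0.21, edgeR adjusted p = 2.00e-05, 2.30 without E-Mac 2 and 4 and 1.54 without E-Mac 1 and 3).

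Itga4, the α4 chain of VLA-4 (chromosome 2, 79255426 to 79333123), read 337, 414, 295 and 436 CPM in E-Mac 1 to 4 and 544, 527, 533 and 531 CPM in Mac 1 to 4. It fell in every E-Mac library, and the spread was wider in E-Mac (coefficient of variation 17.8%, against 1.37% in Mac). The log2 fold change was -0.53 ± 0.11 (edgeR adjusted p = 0.000872), -0.75 without E-Mac 2 and 4 and -0.32 without E-Mac 1 and 3. Of its 13978 exon bases, 1124 are also annotated to Cerkl on the opposite strand, which had 5 to 32 counts per library.

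Itgb1, the shared β1 chain (chromosome 8, 128685654 to 128733200), read 355, 366, 340.0 and 334 CPM in E-Mac 1 to 4 and 295, 324, 320.2 and 304 CPM in Mac 1 to 4. The groups did not overlap, but the gap was narrow and the call was fragile (0.17 ± 0.06, edgeR adjusted p = 0.0410, 0.0146 to 1 over the alternatives other than leaving out a pair). It was lost with a filter of at least 10 CPM (0.13, edgeR adjusted p = 0.0761), with total counts only (0.023, edgeR adjusted p = 0.762) and with upper-quartile factors (0.070, edgeR adjusted p = 0.372), and when E-Mac 1, E-Mac 2, Mac 1, Mac 3 or Mac 4 was left out (edgeR adjusted p = 0.0635, 0.0671, 0.117, 0.0671 and 0.104).

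The chains of the RGD-binding receptors also split. Itgav, the αv chain (chromosome 2, 83724397 to 83806916), read 129, 132, 121 and 115 CPM in E-Mac 1 to 4 and 59.6, 62.5, 58.2 and 55.9 CPM in Mac 1 to 4. Its values were tight in both groups and the E-Mac level was about 2.10-fold higher (log2 fold change 1.07 ± 0.07, edgeR adjusted p = 2.85e-08, and 1.09 or 1.07 without E-Mac 2 and 4 or without E-Mac 1 and 3). Itgb3, the β3 chain that pairs with αv in macrophages and with αIIb in platelets (chromosome 11, 104608000 to 104670476), read 36.1, 67.8, 42.4 and 85.5 CPM in E-Mac 1 to 4 and 92.7, 101, 104 and 89.9 CPM in Mac 1 to 4. E-Mac 4 came close to the lowest Mac library, whereas E-Mac 1 and 3 were far below it (-0.74 ± 0.25, edgeR adjusted p = 0.0292, 0.00479 to 0.364 over the alternatives other than leaving out a pair). Its value was -1.29 without E-Mac 2 and 4 and -0.33 without E-Mac 1 and 3. It did not pass when any one of E-Mac 2, E-Mac 3, Mac 2 and Mac 3 was left out (edgeR adjusted p = 0.0620, 0.0738, 0.0606 and 0.0575) and with no filter on low counts (edgeR adjusted p = 0.126).

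For 6 of the 10 chains the E-Mac libraries fell into the same pairs. Itgal, Itga4, Itgax and Itgb3 were lower in both E-Mac 1 and 3 than in E-Mac 2 and 4, and Itga5 and Itga6 were higher. For Itgam, Itgb1, Itgb2 and Itgav these pairs of libraries overlapped. Stromal marker sums were lower in E-Mac 1 and 3 than in E-Mac 2 and 4, and the part of stromal RNA in any of these values was not tested. Macrophage marker sums were higher, at 13830 and 14412 CPM in E-Mac 1 and 3 against 12460 and 10240 CPM in E-Mac 2 and 4. Monocyte and megakaryocyte sums were also higher in E-Mac 1 and 3, and dendritic, B, and T and NK cell sums lower. The part of these cell types was not tested. Granulocyte marker sums were lower in E-Mac 1 and 3 than in E-Mac 2 and 4 and highest in Mac. Itgal, Itga4 and Itgb3 had the same order of the pairs and Mac, but not of the single E-Mac libraries. The part of granulocytes in those falls was not tested.

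**Figure D2:**
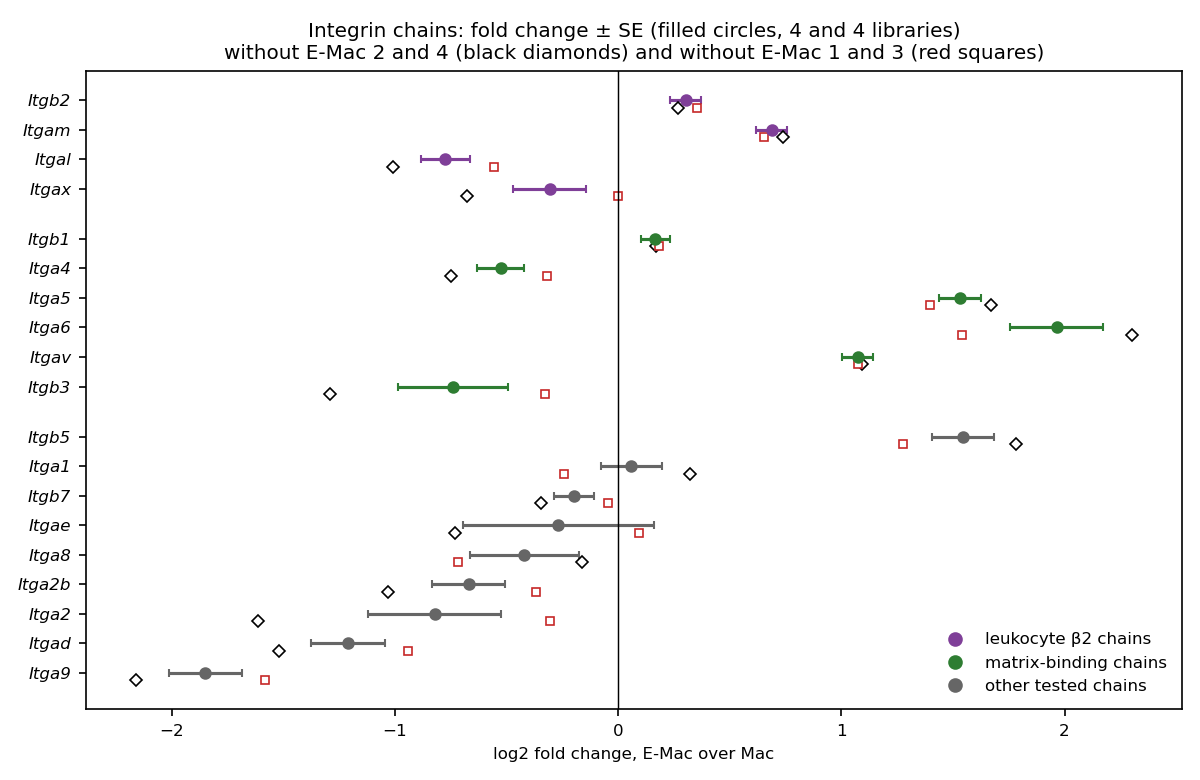
Log2 fold change of each integrin chain, E-Mac over Mac, as filled circles with the standard error (4 and 4 libraries), the value without E-Mac 2 and 4 as a black diamond and without E-Mac 1 and 3 as a red square. Itga6, Itgb5, Itga5 and Itgav lie above 1, Itga9 lies lowest at -1.85, no called chain changes direction without either pair, and Itgax lies near 0 without E-Mac 1 and 3. Itga1 and Itgae, which did not pass, change direction between the pairs.

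Levels of different chains can be set side by side only per length, and CPM was divided by the merged exon length of each gene in kilobases. On this scale Itgb2 was highest in both groups, at 531 ± 29.3 CPM per kilobase in E-Mac and 430.4 ± 3.80 in Mac (SD, n = 4 each). In E-Mac it was followed by Itgam (121 ± 7.90 CPM per kilobase), Itgb1 (85.5 ± 3.51), Itgal (63.7 ± 11.9), Itga5 (38.8 ± 5.10) and Itga4 (26.5 ± 4.71), each with a range apart from its neighbour's. Itgax (15.4 ± 4.15), Itgav (11.6 ± 0.746), Itgb3 (9.82 ± 3.89) and Itga6 (8.58 ± 2.72) came last, and the ranges of neighbours in that order overlapped. In Mac the order after Itgb2 was Itgal (109 ± 2.62 CPM per kilobase), Itgb1 (76.1 ± 3.37), Itgam (75.0 ± 1.39), Itga4 (38.2 ± 0.522), Itgax (19.1 ± 1.55), Itgb3 (16.4 ± 1.1), Itga5 (13.4 ± 0.83), Itgav (5.50 ± 0.258) and Itga6 (2.19 ± 0.178). There the ranges of Itgb1 and Itgam, and of Itgax and Itgb3, overlapped, and those of other neighbours did not.

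**Figure D3:**
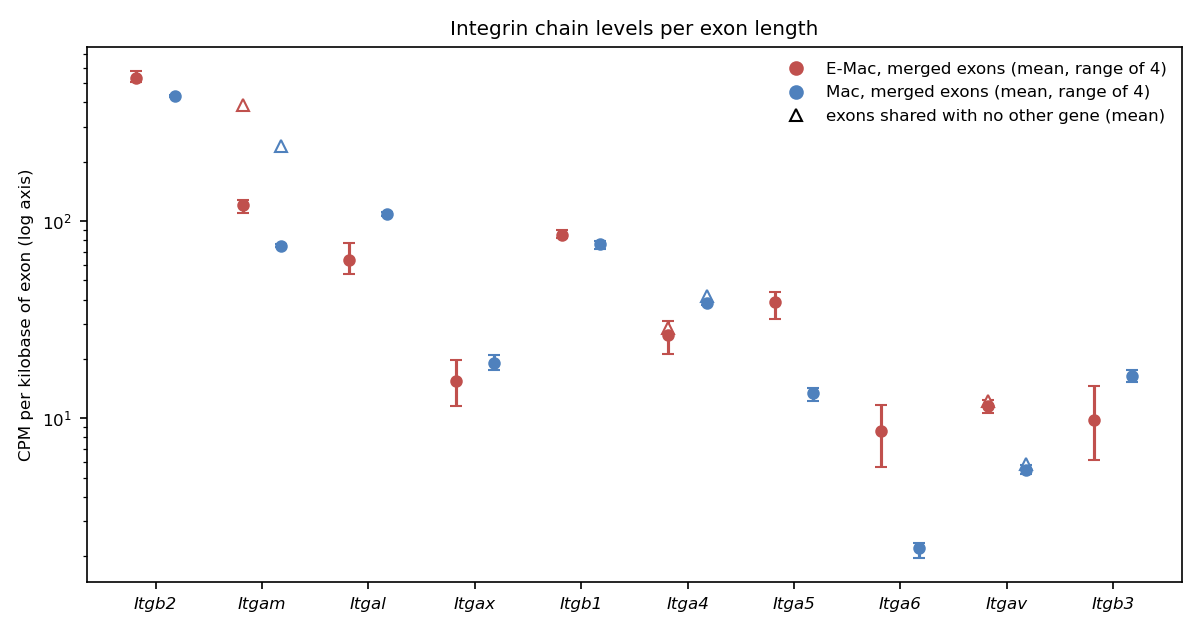
CPM per kilobase of merged exon (log axis) of the 10 chains, E-Mac in red left of Mac in blue, with the mean and the range of 4 libraries, and open triangles for Itgam, Itga4 and Itgav when only exons shared with no other gene are counted. Itgb2 is highest in both groups, and Itgam moves to 385 and 239 CPM per kilobase in E-Mac and Mac with its unshared exons.

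The 4 β2 chains made up 79.0 to 80.7% of the summed per-kilobase level of the 10 members in E-Mac and 80.4 to 80.9% in Mac, so this share overlapped between the groups. Within the β2 α chains the composition differed. Itgam was 60.6 ± 6.00% of the summed level of Itgam, Itgal and Itgax in E-Mac and 36.9 ± 0.825% in Mac, Itgal 31.7 ± 4.39% in E-Mac and 53.7 ± 0.427% in Mac, and Itgax 7.65 ± 1.66% in E-Mac and 9.40 ± 0.562% in Mac (SD, n = 4 each). If reads in exons shared with Gm49368 had gone uncounted, so that only the unshared exons of Itgam count, its share would be 82.9 ± 3.61% in E-Mac and 65.1 ± 0.803% in Mac. Itgam was then above Itgal in both groups, whereas with merged exons it was above Itgal in E-Mac and below it in Mac.

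Ratios of 2 chains within a library do not depend on how libraries are scaled, and 6 such ratios were compared with exact two-sided permutation tests, whose smallest p for 4 against 4 libraries is 0.0286. The count ratio of Itgam to Itgal was 1.70, 1.36, 1.83 and 1.08 in E-Mac 1 to 4 and 0.546, 0.519, 0.510 and 0.529 in Mac 1 to 4. Every E-Mac library had more Itgam than Itgal counts and every Mac library had fewer (difference in mean log2 ratio 1.48, exact permutation p = 0.0286, adjusted p = 0.0343 over the 6 ratios). Itgam was higher and Itgal lower in every E-Mac library, so this ratio had to separate the groups. Its p is therefore no support beyond the single chains. The ratio of Itgax to Itgam was 0.0913 to 0.171 in E-Mac and 0.226 to 0.263 in Mac (-1.03). Among the partners of β1, the ratio of Itga5 to Itga4 was 0.360 to 0.691 in E-Mac and 0.114 to 0.133 in Mac (2.07), and that of Itga6 to Itga4 was 0.117 to 0.312 in E-Mac and 0.0335 to 0.0397 in Mac (2.46).

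The ratio of the β3 to the β1 chain, Itgb3 to Itgb1, was 0.102, 0.185, 0.125 and 0.256 in E-Mac 1 to 4 and 0.315, 0.313, 0.324 and 0.296 in Mac 1 to 4 (-0.99). These 4 ratios had the same exact permutation p of 0.0286 and the same adjusted p of 0.0343, since their groups did not overlap. As for Itgam to Itgal, the single chains fixed this in advance for Itga5 to Itga4, Itga6 to Itga4 and Itgb3 to Itgb1. It was not fixed for Itgax to Itgam, because Itgax itself overlapped between the groups. The ratio of the β2 to the β1 chain, Itgb2 to Itgb1, was 4.38 to 4.79 in E-Mac and 4.08 to 4.41 in Mac. Those groups overlapped and the difference of 0.13 on the log2 scale did not pass (exact permutation p = 0.0571, adjusted p = 0.0571). Without E-Mac 2 and 4 the differences were 1.75 for Itgam to Itgal, -1.41 for Itgax to Itgam, 2.42 for Itga5 to Itga4, 3.06 for Itga6 to Itga4 and -1.47 for Itgb3 to Itgb1. Without E-Mac 1 and 3 they were smaller, at 1.21, -0.65, 1.71, 1.86 and -0.52 in the same order.

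**Figure D4:**
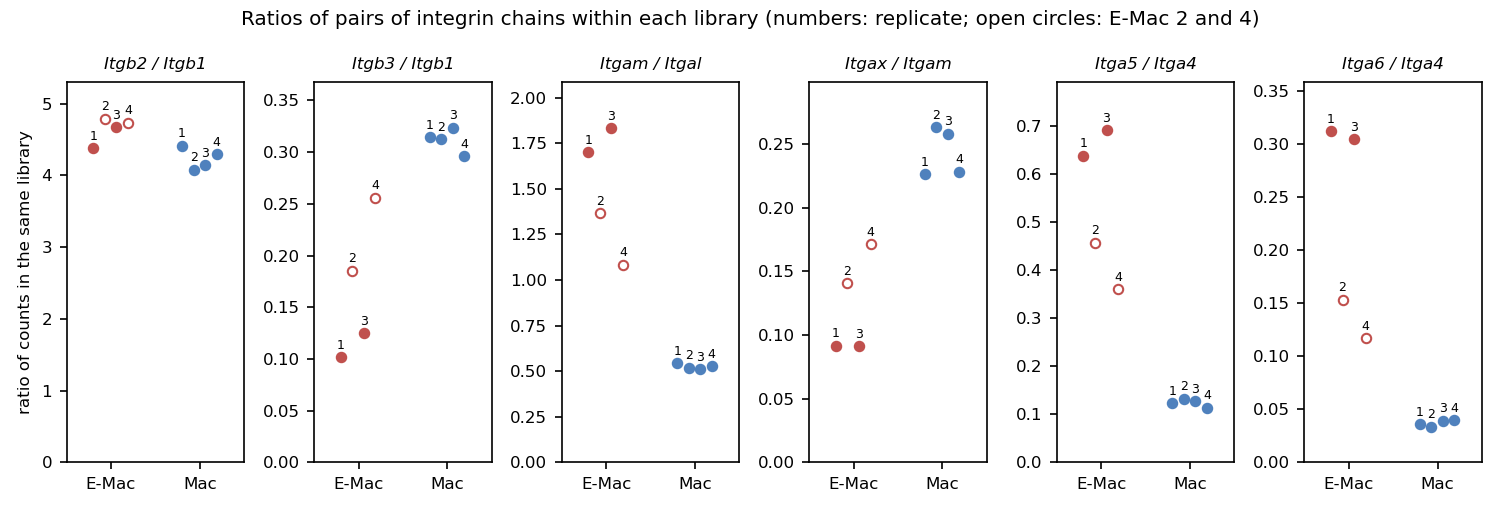
Ratio of the counts of 2 integrin chains in the same library (linear axis from 0), E-Mac in red left of Mac in blue, with the replicate number above each point and E-Mac 2 and 4 as open circles. The groups are apart in 5 panels and overlap for Itgb2 to Itgb1, and in those 5 panels E-Mac 4 is the E-Mac library nearest to Mac.

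Of 17 further integrin chains, 9 could be tested, of which Itgb5 rose, 4 fell and 4 did not pass, with a median log2 fold change of -0.42. That is 55.6% called, close to the 58.3% of all genes. Itgb5, another β partner of αv, read 177, 137, 178 and 112 CPM in E-Mac 1 to 4 and 45.1, 52.4, 53.0 and 56.3 CPM in Mac 1 to 4. It rose about as much as Itga5 (1.54 ± 0.14, edgeR adjusted p = 2.34e-06), while the β3 partner fell. Itgad, the fourth α chain of the β2 family, fell at a low level (5.29 ± 1.22 CPM in E-Mac and 12.3 ± 0.963 CPM in Mac, -1.21 ± 0.17, edgeR adjusted p = 3.36e-05). Itga9 (-1.85 ± 0.16, edgeR adjusted p = 5.05e-07), Itga2b, the αIIb chain of platelets and itself one of the 11 megakaryocyte markers (-0.67 ± 0.17, edgeR adjusted p = 0.00418), and Itga2, a collagen-binding chain (-0.82 ± 0.30, edgeR adjusted p = 0.0336), fell too. Itgb7, which pairs with α4 and αE, was at 442 ± 54.3 CPM in E-Mac and 507 ± 26.8 CPM in Mac (-0.20 ± 0.09, edgeR adjusted p = 0.0721), and Itga1, Itga8 and Itgae did not pass either (0.06 ± 0.14, -0.42 ± 0.24 and -0.27 ± 0.43). Itga1 changed direction between the pairs, at 0.32 without E-Mac 2 and 4 and -0.24 without E-Mac 1 and 3. So did Itgae, at a low level (-0.73 and 0.09 in the same order). The other tested chains kept their direction, with Itga2 at -1.61 and -0.31 and Itga8 at -0.16 and -0.72.

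Genes that switch integrins on or off at their cytoplasmic tails moved in both directions, 8 of 20 higher and 7 lower (75% called, against 58.3% of all genes), with a median of 0.10. Rap1b, a small GTPase that activates integrins (0.68 ± 0.08), and the adaptor Dok1, which binds β tails (0.58 ± 0.08), rose the most of those with at least 10 CPM. Rasgrp2, an exchange factor for Rap1, stood at 56.8 ± 6.53 CPM in E-Mac and 259 ± 9.88 CPM in Mac (-2.19 ± 0.08), and Cytip (-1.19 ± 0.10), which holds back β2 adhesion through cytohesin-1, fell as well. The largest edgeR adjusted p of these 4 was 3.99e-05. The tail-binding activators talin and kindlin-3 were looked up after their values had been seen: Fermt3 (kindlin-3) rose slightly (0.37 ± 0.06, edgeR adjusted p = 0.000189), and Tln1 did not pass (-0.16 ± 0.07, edgeR adjusted p = 0.0630). Of 27 adhesion adaptors and kinases 13 rose and 8 fell (77.8% called, median 0.15). Lpxn, the leukocyte paralog of paxillin (1.40 ± 0.10), and Parvb (0.77 ± 0.15) rose, and the focal adhesion proteins vinculin, Vcl (-1.06 ± 0.13), and zyxin, Zyx (-0.69 ± 0.11), fell, with an edgeR adjusted p of at most 0.000826.

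Ligands that integrins recognise on cells or in matrix moved as well, 3 of 8 cell-surface ligands up and 3 down (75% called, median 0.59), and 9 of 16 matrix and soluble ligands up and 2 down (68.8% called, median 3.09). The matrix count of 11 moved to 18 of the list with no filter, to 8 with limma-voom and to 5 with at least 10 CPM. Vcam1, the counter-receptor of α4β1, fell beside Itga4 (16.2 ± 4.67 CPM in E-Mac and 64.6 ± 7.50 CPM in Mac, -1.997 ± 0.18, edgeR adjusted p = 1.81e-06), and so did L1cam (-1.62 ± 0.09, edgeR adjusted p = 5.00e-09). Pecam1 (1.02 ± 0.14, edgeR adjusted p = 5.96e-05) and F11r, which encodes JAM-A, a ligand of αLβ2 (0.92 ± 0.17, edgeR adjusted p = 0.000462), rose. Fn1, the fibronectin gene whose product α5β1 binds, fell while Itga5 rose. It read 990.0, 658, 834 and 614 CPM in E-Mac 1 to 4 and 3349.8, 3193, 3446 and 3784 CPM in Mac 1 to 4 (-2.15 ± 0.14, edgeR adjusted p = 4.48e-08).

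The 2 largest rises among the matrix ligands by the rule for named genes were Col1a2, at 11.8, 90.0, 9.50 and 93.0 CPM in E-Mac 1 to 4 and at most 0.369 CPM in Mac, and Tnc, at 5.14, 21.4, 3.23 and 33.6 CPM in E-Mac 1 to 4 and at most 0.124 CPM in Mac. Neither passed with limma-voom (adjusted p = 0.169 for Col1a2 and 0.0598 for Tnc). Of the 9 matrix ligands that rose, 6 (Tnc, Nid1, Fbn1, Col1a1, Col1a2 and Col4a2) had the E-Mac libraries in the order of the stromal marker sum, to which Col1a1 and Col1a2 belong, and the part of stromal RNA in their rises was not tested. Looked up after their values had been seen, Thbs1 (7637 ± 966 CPM in E-Mac and 667 ± 203 CPM in Mac, edgeR adjusted p = 9.78e-08) and Spp1, which encodes osteopontin (559.9 ± 202 CPM in E-Mac and 5.99 ± 0.802 CPM in Mac, edgeR adjusted p = 1.94e-07), rose. Both are ligands of αv integrins. Icam1, a ligand of αLβ2 and αMβ2, also rose (60.4 ± 2.78 CPM in E-Mac and 33.1 ± 5.11 CPM in Mac, edgeR adjusted p = 9.39e-06). Icam2, of the same list of cell-surface ligands, fell (13.4 ± 2.17 CPM in E-Mac and 25.3 ± 2.72 CPM in Mac, edgeR adjusted p = 4.03e-05).

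Among 16 membrane proteins that act beside integrins 11 rose and 1 fell (75% called, median 0.56). Mmp14, a membrane-bound matrix protease, read 572, 548, 578 and 389 CPM in E-Mac 1 to 4 and 5.34, 8.83, 6.88 and 6.47 CPM in Mac 1 to 4 (6.26 ± 0.18, edgeR adjusted p = 1.03e-10). Cav1, the caveolin gene, was at 17.8, 16.6, 21.6 and 13.9 CPM in E-Mac 1 to 4 and at most 0.123 CPM in Mac. The tetraspanin Cd81 fell (-0.91 ± 0.12, edgeR adjusted p = 1.80e-05).

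**Figure D5:**
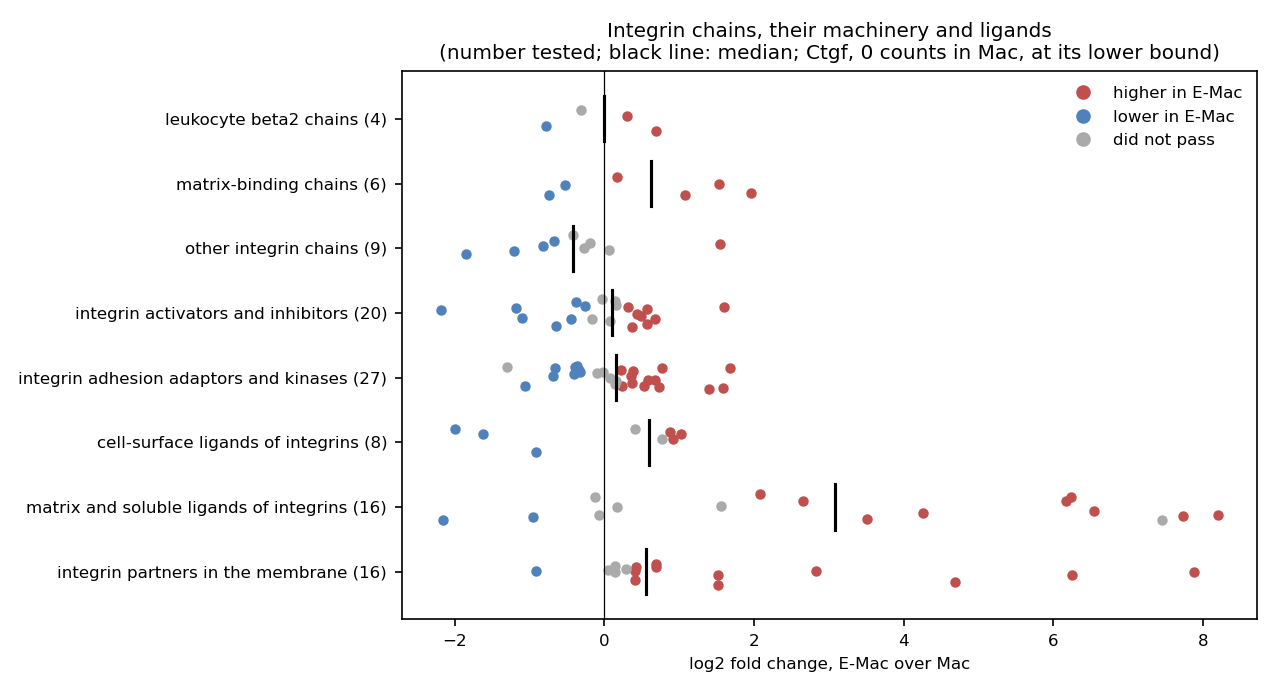
Log2 fold change, E-Mac over Mac, of each tested gene of 8 lists (red higher, blue lower, grey not passing), with the number tested beside the name and a black line at the median. The member lists spread on both sides of 0, and the matrix and soluble ligands reach furthest to the right with a median of 3.09. Ctgf, with 0 counts in Mac, is drawn at its lower bound of 7.45, computed as if the 4 Mac libraries held 3 counts in all.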

How the data were processed

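The authors deposited raw counts of reads for each gene symbol in 8 libraries. According to the submitters' processing notes the tools were bcl2fastq, HISAT2, featureCounts, Subread and DESeq2 (no versions) and the build was mm10. Annotation, strand and overlap settings are not stated there. Date-like names (26, at most 0.160% of counts) were dropped, and 37 mitochondrial genes had 0 counts. Within a group every pair of libraries differed beyond sampling noise, with a chi-square to degrees-of-freedom ratio of at least 4.85.

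The main test was edgeR's quasi-likelihood F-test (version 4.0.16, R 4.3.3) of E-Mac against Mac, with TMM factors, robust dispersions, the filterByExpr filter (count 10, total 15) and Benjamini-Hochberg adjustment over 13412 genes. Standard errors are the absolute log2 fold change over the root of F. CPM use TMM-scaled totals, and ratios a pseudocount of 0.5. Exons came from GENCODE M21 (mm10) and promoters from RefSeq (GRCm38.p6). The test was checked on simulated data, which did not hold the split of the E-Mac libraries into pairs.

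The members, gene lists, ratios and tests were chosen with earlier results of these data known. Named are all members, all tested other chains and, in each list, the 2 largest rises and falls among calls with at least 10 CPM in the higher group; exceptions are marked. Alternatives were RLE, upper-quartile and no factors, 2 other filters, DESeq2 1.42.0, limma-voom (limma 3.58.1), a replicate block, a test against a fold of 1.5, leaving out each library or E-Mac 2 and 4, a ratio pseudocount of 5 and, chosen after seeing the data, leaving out E-Mac 1 and 3 and unshared exon lengths.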

Additional observations from a re-analysis of the deposited data

How the results depend on the processing

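No member changed direction under any of the 19 alternatives run for it, and Itgav, Itga5 and Itga6 kept their call in all that left out no pair. Against a fold of 1.5, 2968 genes passed (1490 higher and 1478 lower) in place of 7814 (3954 and 3860), and 3 members, all higher, with 0 lower. There Itgam (0.69), Itgal (-0.77), Itga4 (-0.53), Itgb1 (0.17), Itgb2 (0.30) and Itgb3 (-0.74) lost their call. Higher genes were 50.6% of calls with TMM factors and 37.4% with total counts only, which moved the median of all genes by about -0.15. Itgb1 also lost its call with total counts only (0.023), upper-quartile factors (0.070), at least 10 CPM in 4 libraries (0.13) and the replicate number as a block (0.17), and ranged from 0.14 to 0.20 as single libraries were left out. Itgb3 lost its call with no filter (-0.71) and ranged from -0.98 to -0.56 with 1 library left out. Itgax gained a call with total counts only (-0.45) and without E-Mac 4 (-0.44), and ranged from -0.44 to -0.19 with 1 library left out. Its value was -0.68 without E-Mac 2 and 4 and -0.0011 without E-Mac 1 and 3, pairs formed from the data. Without E-Mac 2 and 4 the log2 ratio differences moved to -1.47 (Itgb3 to Itgb1), 1.75 (Itgam to Itgal), -1.41 (Itgax to Itgam), 2.42 (Itga5 to Itga4) and 3.06 (Itga6 to Itga4), and without E-Mac 1 and 3 (added after seeing the data) to -0.52, 1.21, -0.65, 1.71 and 1.86 in the same order. The permutation test cannot pass with so few libraries left. The causes of these changes were not tested. Libraries with the same number did not deviate together (correlations of -0.106 to 0.028), so the numbers were not taken as pairs; the block left 8 members called. No E-Mac library correlated best with the Mac library of its own number except E-Mac 2. The lowest count of a member in any library was 463 in E-Mac (Itgb3) and 212 in Mac (Itga6). Itgam's level per kilobase moved to 385 in E-Mac and 239 in Mac with unshared exons.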

Other observations

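Itgb2l, a β2-like chain of mouse bone marrow neutrophils, was looked up after its values had been seen. It read 44.4, 71.4, 33.7 and 48.2 CPM in E-Mac 1 to 4 and 247, 246, 244 and 222 CPM in Mac 1 to 4, and fell in all 4 E-Mac libraries (log2 fold change -2.28 ± 0.19, edgeR adjusted p = 3.71e-06). Granulocyte marker sums were also lower in every E-Mac library than in every Mac library, and their part in this value was not tested. The labels do not say how reads shared with Itgb2 were counted.

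For each β chain the 3 genes with the most similar profile over the 8 libraries were listed by the root-mean-square difference of mean-centred log2(CPM + 1), among 8675 genes with a mean of at least 10 CPM. For Itgb1 they were Chuk (0.031), Fbxo42 (0.033) and Kdm1a (0.040). For Itgb2 they were Picalm (0.025), Axin1 (0.031) and Trim26 (0.035). For Itgb3 they were Retnlg (0.098), Hip1r (0.11) and Vnn3 (0.12), and Retnlg, one of the granulocyte markers, stood at 1035 CPM in E-Mac and 1919 CPM in Mac on average. The 8 libraries share 1 comparison, so these likenesses describe the profile over the groups as much as over single libraries.

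None of 32 groups of 4 libraries, for the members' CPM and for the 6 ratios, held a library far from the other 3 by Dixon's criterion.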
